A study of Schizosaccharomyces pombe with 3 samples.

Results

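The 4 genes described here encode the reductive iron uptake system and the heme uptake protein of the fission yeast Schizosaccharomyces pombe: fip1, fio1, frp1 and shu1. All array features named for these genes by symbol or systematic name were taken, whatever their values, which gave 9 of 9967 named genomic features: 4 intergenic features (named IGR- and the gene), 4 open reading frames (ORFs) and 1 feature that carries the words long intergenic before the name fio1. Each feature was printed as 2 spots, so 18 spots on an array belonged to the 4 genes. An intergenic feature was taken to lie upstream of the gene in its name; no source used here says where the amplified stretch lies.

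The study mapped chromatin bound by Tup12, a corepressor, in a strain whose Tup12 carries a GFP tag, grown in rich YES medium and harvested at mid-log phase. DNA recovered with a polyclonal antibody against GFP was labelled with Cy5 and hybridised together with Cy3-labelled input DNA from the same strain. There were 3 such arrays, described as individual experiments, with no dye swap, no second condition, and no array of an untagged strain analysed here. Each value below is log2 of immunoprecipitate over input, centred so that 0 is the median of the array, and errors are SDs over n = 3 arrays. Enriched means a mean above 0 with an adjusted p under 0.05 in limma fitted across all 5461 features that had a value on all 3 arrays. These p-values measure the spread between the arrays, which may be technical in part. A ratio was formed for 63.4% to 67.9% of the 19942 genomic spots, pairs of arrays correlated across features at 0.73 to 0.84, and the median feature had an SD of 0.41 over the arrays.

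In reductive iron uptake, a ferric reductase at the cell surface turns ferric into ferrous iron, and a complex of a multicopper oxidase and a permease oxidises it again while carrying it into the cell. In fission yeast these steps are carried out by Frp1, Fio1 and Fip1, and Shu1 is a cell-surface protein that takes up heme as another source of iron. When iron is plentiful the GATA-type repressor Fep1 binds sites with the core (A/T)GATAA upstream of such genes, and Tup11 and Tup12 are known as its corepressors; the iron state of the cultures was not measured here.

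The upstream sequences of the 4 genes are shown because the highest signal of the group lay at the upstream features. Each line gives the 300 bases before the annotated start of the gene in RefSeq assembly ASM294v3, 5′ to 3′ on the strand of the gene. Capitals mark each match to TGATAA or AGATAA on either strand, and to the longer forms ATCTGATAA and ATCAGATAA that contain them. No source used here gives the build or the amplified stretches of the array, so these windows are not the array features themselves.
fio1, chrI:4234772-4235071, forward strand: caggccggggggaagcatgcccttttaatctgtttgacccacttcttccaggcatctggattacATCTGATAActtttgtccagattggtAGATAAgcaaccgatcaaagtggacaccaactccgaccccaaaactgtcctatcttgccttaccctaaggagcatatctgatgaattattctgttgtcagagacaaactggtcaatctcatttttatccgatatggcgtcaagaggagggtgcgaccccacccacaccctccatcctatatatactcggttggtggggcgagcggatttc
frp1, chrII:162393-162692, reverse strand: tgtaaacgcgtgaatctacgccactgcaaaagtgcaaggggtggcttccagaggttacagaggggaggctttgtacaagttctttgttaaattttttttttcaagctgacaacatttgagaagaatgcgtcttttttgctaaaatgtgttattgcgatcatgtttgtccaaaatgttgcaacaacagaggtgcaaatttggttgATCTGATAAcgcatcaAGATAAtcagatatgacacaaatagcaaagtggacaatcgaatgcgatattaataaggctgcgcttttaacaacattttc
shu1, chrI:86279-86578, reverse strand: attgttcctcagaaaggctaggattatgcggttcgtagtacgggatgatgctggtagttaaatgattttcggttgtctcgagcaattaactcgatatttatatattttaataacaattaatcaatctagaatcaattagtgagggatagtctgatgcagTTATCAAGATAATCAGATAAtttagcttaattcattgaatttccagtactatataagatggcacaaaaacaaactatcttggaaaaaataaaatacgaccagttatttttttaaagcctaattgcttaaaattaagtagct

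The genes fip1 and fio1 are divergent, with 303 bases between their annotated starts on chromosome I (fip1 at 4232998 to 4234768 on the reverse strand, fio1 at 4235072 to 4237874 on the forward strand). The window of fip1 (4234769 to 4235068) is therefore the sequence of the fio1 line read from the other strand, shifted by 3 bases, and both genes share the same sites. The extended site ends 227 bases before the fio1 start and lies 67 bases before the fip1 start, and the second core site ends 204 bases before fio1 and lies 93 bases before fip1. Both sites thus lie nearer to fip1.

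The frp1 gene lies on chromosome II at 160357 to 162392, and its window held 2 core sites in the sense of the gene, of which the one that ends 87 bases before the start is extended and the other ends 74 bases before it. The shu1 gene lies on chromosome I at 85566 to 86278, is annotated without a 5′ untranslated region, and had 3 core sites within a single run of capitals, 121 to 135 bases before the start. The extended site of shu1 is the one 121 bases before the start, and one core site reads on the opposite strand. The longest stretch shared by the frp1 and shu1 windows was 17 bases, ATCAAGATAATCAGATA. In frp1 it holds the core site 74 bases before the start and does not reach the extended site. In shu1 it overlaps all 3 core sites. The fio1 and frp1 windows shared at most 11 bases, CAAAGTGGACA, which overlaps no site.

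Sites of this kind are short, so their count in other promoters gives the background. Of 5112 windows of the same length before annotated protein-coding genes, 45.6% held at least 1 core site, 13.8% at least 2 and 2.64% at least 3 on either strand. An extended site was found in 68 windows (1.33%), and all 4 uptake genes had one, with fip1 and fio1 sharing theirs. The share of G and C was 48.0% in the fio1 window, 38.0% in that of frp1 and 30.3% in that of shu1, against a median of 32.0%. A match is a description of the letters and not a measured binding site.

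All 9 features of the uptake genes were enriched. Of all 5461 features tested 22.1% were enriched, by kind 43.7% of 2109 intergenic, 8.19% of 3223 ORF and 17.8% of 129 long intergenic features. All 9 were also in the binding list made by the procedure in the labels, in which a feature needs a median percentile rank of its spots at or above 85. That list held 26.1% of intergenic, 3.79% of ORF and 11.6% of long intergenic features. With each printed block of the array centred on its own median, 6 of the 9 were in the list, without the fio1 and frp1 ORFs and the long fio1 feature. Among intergenic features enrichment was thus common, and the uptake genes are described further by their place within their kind.

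**Figure D1:**
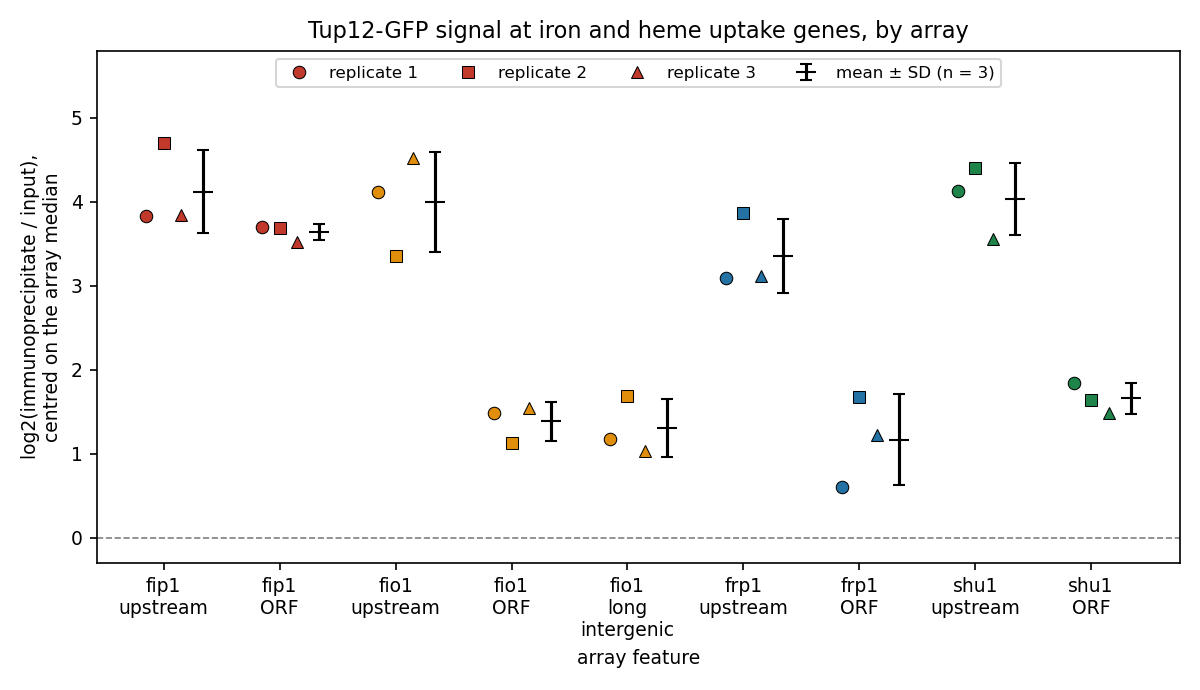
Centred log2 ratio of immunoprecipitate over input (vertical axis) for each of the 9 features (horizontal axis) on replicates 1, 2 and 3, with the mean and SD of n = 3 arrays beside them. The upstream features and the fip1 ORF lie between 3.10 and 4.70, and the other features between 0.60 and 1.85.

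Upstream of fip1, the iron permease gene, the log2 ratio was 3.83, 4.70 and 3.84 on replicates 1, 2 and 3. Replicate 2 stood highest, and the mean of 4.12 ± 0.50 corresponds to 17.4-fold over the array median (limma adjusted p = 2.0e-11). This was rank 4 of the 2109 intergenic features. Upstream of fio1, the multicopper oxidase gene, the values were 4.12, 3.35 and 4.52, and here replicate 2 was lowest. The mean was 4.0 ± 0.60, 16.0-fold, at rank 7 (limma adjusted p = 3.4e-11).

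If both features lie upstream of the genes in their names, they come from the region between these divergent genes and are not independent of each other. Their difference, fip1 minus fio1, was -0.28, 1.35 and -0.68 on the 3 arrays, with a mean of 0.13 ± 1.08, so neither was the higher one beyond the spread between arrays. The array with the highest fip1 value was the one with the lowest fio1 value. Among 277 pairs of divergent neighbours with both upstream features measured, the median size of the difference between means over arrays was 0.54. By this measure 84.8% of pairs differed by more than fip1 and fio1. Their small mean difference comes from array values of opposite sign and does not show close agreement on each array.

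Upstream of shu1, the heme uptake gene, the log2 ratio was 4.13, 4.40 and 3.56, with a mean of 4.03 ± 0.43 or 16.4-fold (limma adjusted p = 2.0e-11, rank 5). Its 3 values overlapped the range of both fip1 and fio1. Upstream of frp1, the ferric reductase gene, the values were 3.10, 3.86 and 3.11, with a mean of 3.36 ± 0.44 or 10.2-fold (limma adjusted p = 4.1e-10, rank 29). Within each array frp1 was below shu1, by 1.04, 0.54 and 0.45. Their ranges over the arrays overlapped, and an exact sign-flip test over 3 arrays cannot give a p under 0.25. In order of the mean, the upstream features ran fip1, shu1, fio1 and frp1, and the ranges of the first 3 over the arrays overlapped. This order depended on the treatment of background: frp1 was highest after a further background subtraction, at 5.76 against 5.40 for shu1, 5.10 for fip1 and 4.95 for fio1. The input of the upstream frp1 spots was close to the background listed for them, for example 14234 against 13260 on replicate 1. On replicate 2 a spot had input below it, 24543 against 27352, so the subtracted value there rests on a single spot. With normexp background correction shu1 was highest at 5.71, and fip1, frp1 and fio1 were at 4.98, 4.92 and 4.81.

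Over the ORFs, fip1 stood apart from the other uptake genes. The log2 ratio over the fip1 ORF was 3.70, 3.69 and 3.53, with a mean of 3.64 ± 0.10 or 12.5-fold (limma adjusted p = 6.1e-11), and this was rank 5 of 3223 ORFs. The shu1 ORF gave 1.85, 1.64 and 1.48, with a mean of 1.66 ± 0.18 at rank 65 (limma adjusted p = 2.1e-05). Each array placed the fip1 ORF above the shu1 ORF, by 1.98 ± 0.11 on average.

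The fio1 ORF gave 1.48, 1.12 and 1.55, with a mean of 1.39 ± 0.23 at rank 90 (limma adjusted p = 1.8e-04). On replicate 3 one of its spots had no accepted input signal, so that value rests on a single spot. This was the only one of the 54 spots of the uptake genes over the 3 arrays without a ratio. The frp1 ORF was the lowest and most variable, at 0.60, 1.68 and 1.22, with a mean of 1.17 ± 0.54 at rank 125 (limma adjusted p = 0.0014). Its median percentile rank of 85.1 lay just inside the limit of the binding list. It left the list without replicate 2, with normexp, with blocks centred and without the filter on flags, where its rank was 65.4.

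The fip1 and fio1 ORFs begin on opposite sides of the same intergenic stretch, and their signals differed. The fip1 ORF was higher by 2.21, 2.57 and 1.98 on replicates 1, 2 and 3, a mean of 2.25 ± 0.30. Of 553 divergent pairs with both ORFs measured, the median difference was 0.67 in size, and 20 pairs (3.62%) differed by more. The position on the printed array moved with this value: the fip1 ORF was printed in block 44, whose median of 0.82 was the highest of the 48 blocks, and the fio1 ORF in a block with a median of 0.53. With each block centred on its own median the fip1 ORF was at 2.82 and the fio1 ORF at 0.86, and both were still called.

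The long intergenic fio1 feature gave 1.17, 1.69 and 1.04, with a mean of 1.30 ± 0.35 at rank 13 of 129 long intergenic features (limma adjusted p = 4.0e-04). It was lower than the upstream fio1 feature on every array, by 2.94, 1.66 and 3.49, a mean difference of 2.70 ± 0.94. No source used here says where this feature lies. It too was printed in a block with a median of 0.82, and with blocks centred it was at 0.48 and no longer called (limma adjusted p = 0.15).

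Signal upstream was next compared with that over the ORF of the same gene, within each array, for all 1312 genes with both features. Upstream signal was called higher for 623 of these genes (47.5%), and for 3 of the 4 uptake genes. For fio1 the difference, upstream minus ORF, was 2.63, 2.23 and 2.97, a mean of 2.61 ± 0.37 (limma adjusted p = 0.0012, rank 77 of 1312). For shu1 it was 2.29, 2.76 and 2.08, a mean of 2.38 ± 0.35 (limma adjusted p = 0.0016, rank 120). For frp1 it was 2.49, 2.18 and 1.89, a mean of 2.19 ± 0.30 (limma adjusted p = 0.0018, rank 164). For these 3 genes the upstream value was the higher one on every array.

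For fip1 the difference was 0.13, 1.00 and 0.31, a mean of 0.48 ± 0.46, and it was not called (limma adjusted p = 0.26). It stood at the 33.9th percentile of the 1312 genes. With blocks centred the fip1 difference was 1.46 and passed the test (limma adjusted p = 0.0017), so the call depends on how position on the array was treated. Whether the block accounts for the level of the fip1 ORF was not tested.

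**Figure D2:**
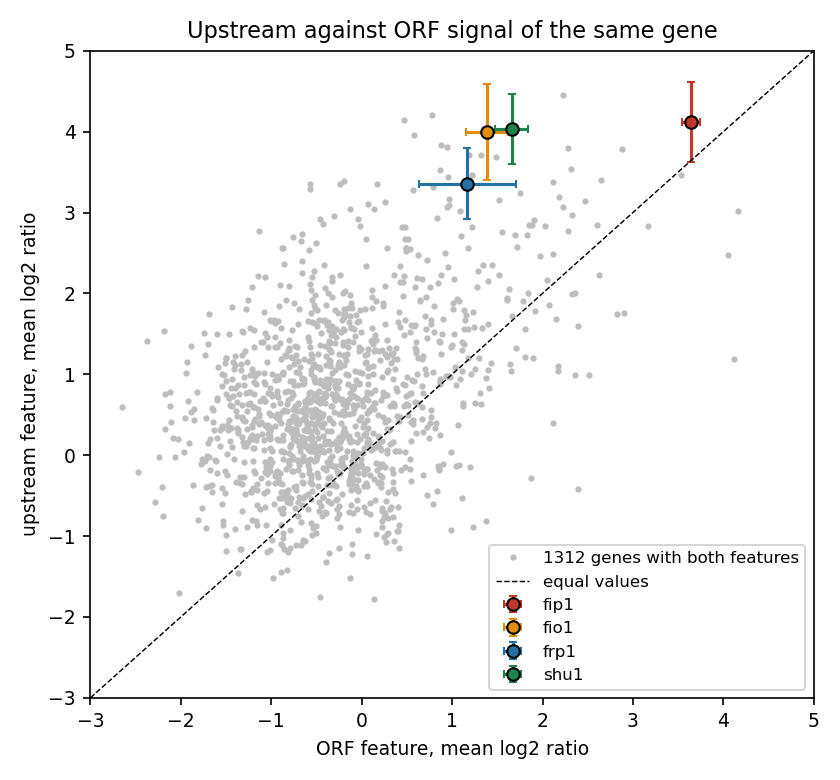
Mean centred log2 ratio of the upstream feature (vertical axis) against that of the ORF feature (horizontal axis) for 1312 genes in grey, with fip1, fio1, frp1 and shu1 in colour and bars of 1 SD over n = 3 arrays. The dashed line marks equal values; fip1 lies near it with 4.12 upstream and 3.64 over the ORF, and the other uptake genes lie 2.19 to 2.61 above it.

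A ratio can be high because immunoprecipitated DNA is abundant or because input signal is low, so both channels were examined. Upstream of fip1 the immunoprecipitate intensity, in units of 1000 as are all intensities here, was 1367 to 1952, at the 99.5th percentile or higher of the tested features on each array, while the input lay at the 29.2nd to 43.0th percentile. The fip1 ORF had an immunoprecipitate intensity of 1360 to 2058 and the upstream fio1 feature one of 922 to 2033. These 3 features were thus among the brightest immunoprecipitate features with input in the middle range.

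Upstream of shu1 the immunoprecipitate was at 498 to 605 (96.1st to 98.0th percentile) and the input at the 1.96th to 5.69th percentile. Upstream of frp1 the immunoprecipitate was only at 186 to 274 (79.8th to 91.1st percentile), with an input of 15.2 to 23.2 at the 0.31st to 1.01st percentile. The ratio of the frp1 feature thus went with one of the lowest input signals on the array. Values were then centred within 20 bins of similar input on each array. There the upstream ratio was 1.95 for frp1 and 2.93 for shu1, both still called. The upstream minus ORF difference was 0.73 for frp1, no longer called (limma adjusted p = 0.081), 1.23 for shu1, still called (limma adjusted p = 0.0088), and 0.05 for fip1. With upstream frp1 input at or below the 1.01st percentile, its input can be lower than that of most spots in its bin. It was thus not fully matched. With the 20% of spots dimmest in input left out, the upstream features of frp1 and shu1 had no value.

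Negative control spots give the level of unspecific signal. On replicates 1, 2 and 3 the 95th percentile of accepted negative control spots in the immunoprecipitate channel was 184, 198 and 250, and 7, 9 and 6 of the 9 uptake features lay above it, against 20.5%, 14.6% and 15.6% of all tested features. The upstream frp1 feature was above it on replicates 1 and 2 and below it on replicate 3. The 99th percentile of the controls was 332, 305 and 337, and 5 uptake features lay above it on each array, against 7.32%, 7.38% and 9.05% of all tested features. The upstream features of fip1, fio1 and shu1 and the fip1 ORF were above it on every array, and neither frp1 feature was on any. The remaining feature was the shu1 ORF on replicate 1, the long fio1 feature on replicate 2 and the fio1 ORF on replicate 3. The last 2 had a high listed background in this channel. In unscaled units, the accepted fio1 ORF spot on replicate 3 had 352298 against a background of 460796. The long fio1 spots on replicate 2 had 311629 and 319673 against 281622 and 302288. None of the 54 spots held saturated pixels, and repeat spots of a feature differed by a median of 0.20 and at most 0.85 log2 units on the same array.

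**Figure D3:**
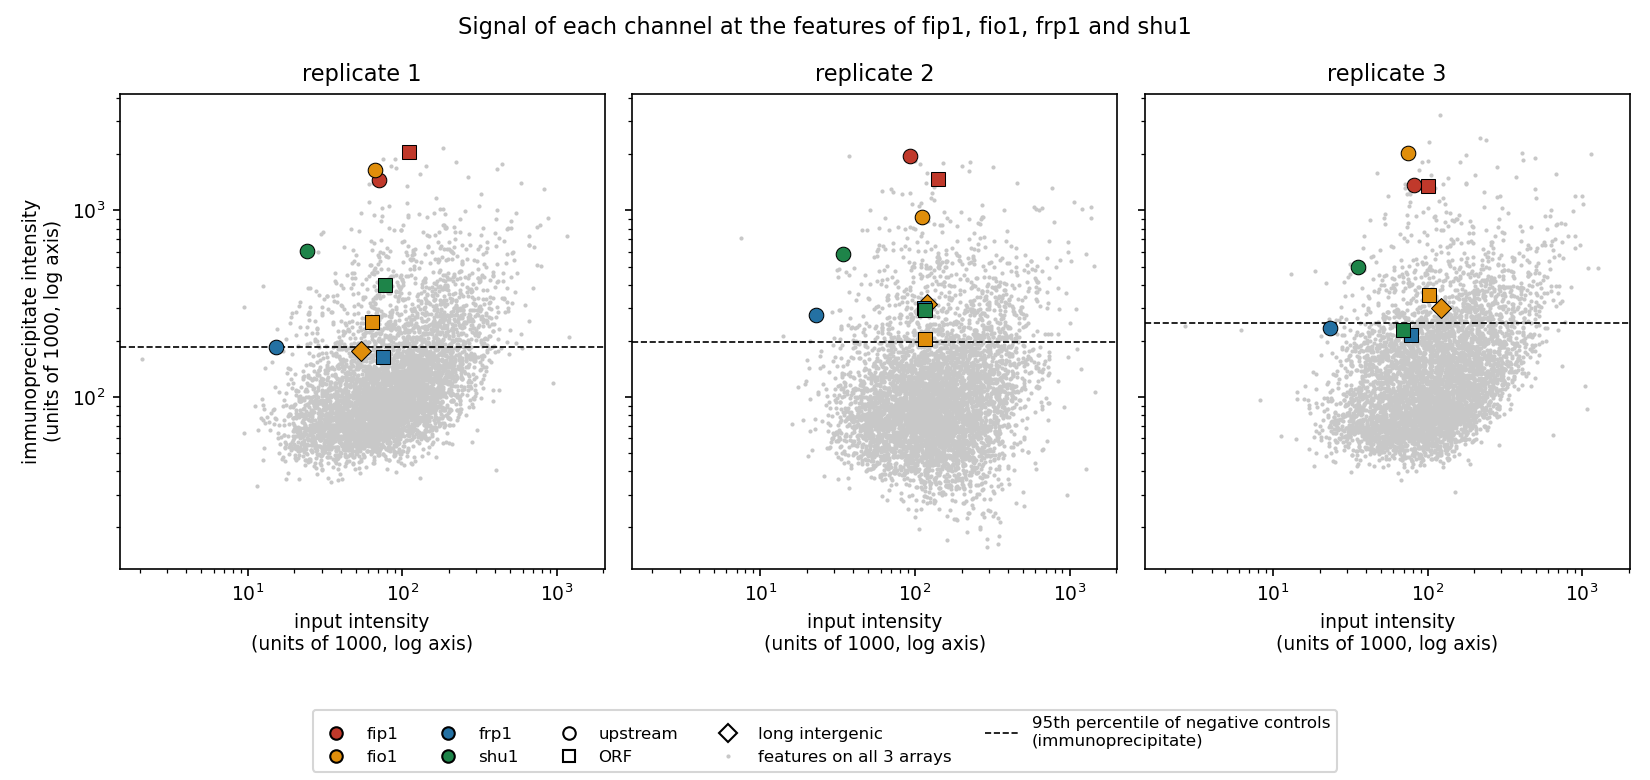
Immunoprecipitate intensity (vertical axis) against input intensity (horizontal axis), both in units of 1000 on log axes, for the features with a value on all 3 arrays in grey and the 9 uptake features in colour, with a panel per replicate. The dashed line is the 95th percentile of the negative controls (184, 198 and 250); the upstream fip1 and fio1 features and the fip1 ORF lie at 922 or more, and the upstream frp1 feature lies near the line at the left edge.

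The surroundings of the uptake genes were compared over the 3 protein-coding genes on each side. At the fip1-fio1 locus 4 of 8 measured neighbouring features were enriched and none was depleted, with means from -0.44 to 2.31. Of all tested features 22.1% were enriched and 26.1% depleted, and by kind 43.7% of intergenic and 8.19% of ORF features were enriched. On the fip1 side, the hsp3105 gene adjacent to fip1 was enriched upstream (1.12 ± 0.14) and over its ORF (1.64 ± 0.11), and the region upstream of cdc22, a ribonucleotide reductase gene, was at 2.31 ± 0.23. On the fio1 side, the adjacent gene dal2 was at -0.20 ± 0.36 upstream and was not called (limma adjusted p = 0.57), and the region upstream of SPAC1F7.10 was enriched at 0.85 ± 0.48. Of the genes adjacent to the pair, hsp3105 was thus called and dal2, whose ORF had no value, was not.

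At the frp1 locus 3 of 8 measured neighbouring features were enriched and 1 was depleted. The adjacent gene pcl1, which encodes a vacuolar iron transporter, lies upstream of frp1 in the same orientation, with 1141 bases between the frp1 start and the end of pcl1, and its own upstream feature was at 1.48 ± 0.62. Beyond it the upstream features of icl1 and SPBC1683.12 were at 2.87 ± 0.35 and 1.88 ± 0.37. On the other side the ORF of ght4, of the hexose transporter family, was at 0.39 ± 0.45 and was not called (limma adjusted p = 0.25), and the urh1 ORF was depleted at -0.83 ± 0.22.

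At the shu1 locus each of the 9 measured neighbouring features was enriched. The siderophore transporter gene str3 lies upstream of shu1 in the same orientation, with 1922 bases between the shu1 start and the end of str3, and gave 3.79 ± 0.39 upstream and 2.87 ± 0.17 over its ORF. The next gene, hhy1, gave 3.19 ± 0.18 and 2.18 ± 0.83, and the isp3 ORF gave 1.22 ± 0.47. On the other side ght3, also of the hexose transporter family, gave 1.72 ± 0.26 upstream and 1.66 ± 0.50 over its ORF, and SPAPJ695.01c gave 1.21 ± 0.18 and 1.81 ± 0.34. The lowest of the 9 was thus 1.21. In the reference, shu1 lies 85.6 kb and frp1 160 kb from the left end of the chromosome. Over the 3 loci 16 of 25 neighbouring features were enriched, against 22.1% of all features. The neighbours were of both kinds, and the shares were 43.7% for intergenic and 8.19% for ORF features. Whether the difference between loci exceeds that between other loci was not tested.

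**Figure D4:**
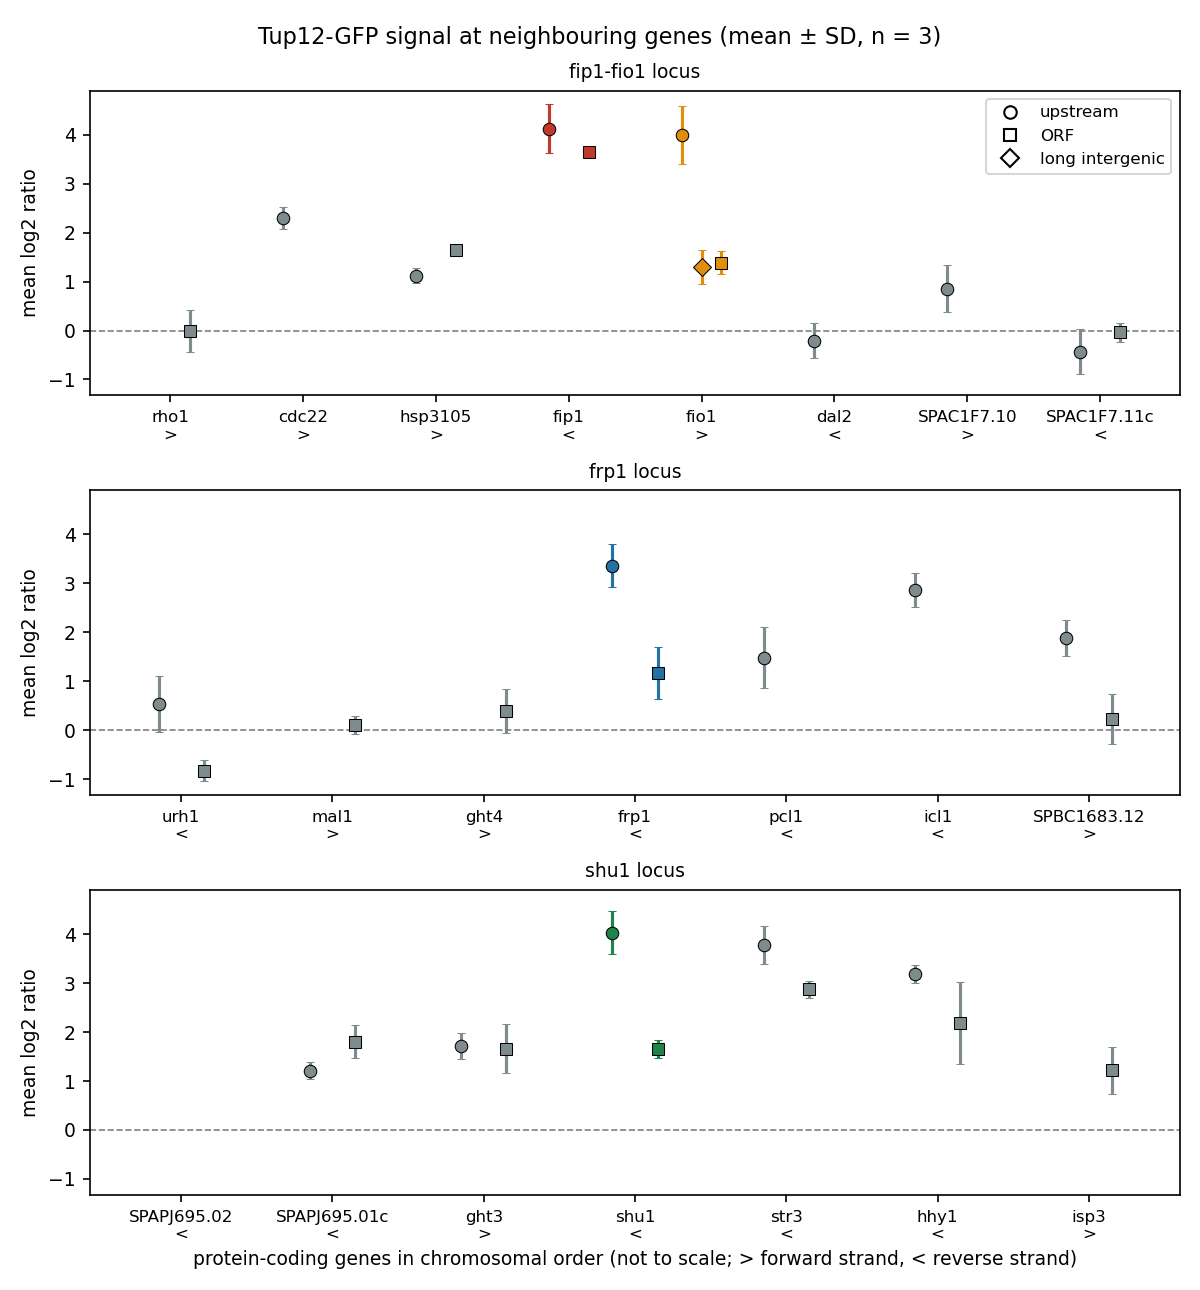
Mean centred log2 ratio with SD (n = 3 arrays, vertical axis) of upstream, ORF and long intergenic features for the uptake genes (coloured) and the 3 protein-coding genes on each side (grey), in chromosomal order and not to scale. Neighbours range from -0.44 to 2.31 at the fip1-fio1 locus, from -0.83 to 2.87 at the frp1 locus and from 1.21 to 3.79 at the shu1 locus.

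Genes with the most similar pattern were sought by the root-mean-square difference over 6 values, the upstream and ORF features on 3 arrays, among the 1312 genes. For fip1 the nearest genes were SPAC1F8.08 (difference 0.60; 3.46 upstream and 3.53 over the ORF) and str3 (0.66), so no gene matched fip1 as closely as the matches of the other uptake genes. For fio1 they were the calcium-transporting ATPase gene cta3 (0.31; 3.71 and 1.19) and psk1, a protein kinase gene (0.39). For frp1 they were SPAC17A2.10c (0.39; 3.10 and 0.96) and the pyruvate decarboxylase gene pdc101 (0.42; 3.44 and 0.96). For shu1 they were wwm3 (0.40; 3.68 and 1.49) and again psk1 (0.55; 3.71 and 1.32). None of the uptake genes was among the 2 nearest of another.

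Other genes of iron and copper handling were compared as lists. The 5 siderophore genes, which make ferrichrome (sib1, sib2) or import iron bound to siderophores (str1, str2, str3), were all enriched upstream, against 43.7% of all intergenic features, with a median of 2.64 against 0.54. Their range ran from sib2 at 1.98 ± 0.57 to str3 at 3.79 ± 0.39, below the upstream means of fip1, fio1 and shu1. Over the 4 measured ORFs str3 alone was enriched, and sib2 was lowest at -0.13 ± 0.90, whereas all 4 uptake genes were enriched over the ORF. The further ferric reductase gene frp2 was enriched upstream at 2.01 ± 0.41, below the 3.36 of frp1, and its ORF had no value on all arrays.

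Fio1 needs copper, which enters the cell through Ctr4 and Ctr5 and reaches the secretory pathway through Ccc2, with Cuf1 as the copper-responsive activator. None of the upstream features of these 4 genes had a value on all 3 arrays. None of their 4 ORFs was enriched, near the 8.19% of all ORFs, and the median of -0.46 was close to the -0.49 of all ORFs. Of the 4, ctr4 was depleted at -0.94 ± 0.30 (limma adjusted p = 0.0064), and ctr5 was highest at -0.26 ± 0.59. Of all ORFs 38.8% were depleted, so these counts do not set the copper genes apart from other ORFs.

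Among the regulators, grx4, a glutaredoxin gene, was enriched upstream at 1.17 ± 0.34, 1 of 4 measured, against 43.7% of all intergenic features. The lowest upstream was fep1 at -0.09 ± 0.62 (limma adjusted p = 0.82). Over the ORFs none of 5 regulators was enriched and 2 were depleted, tup11 at -1.47 ± 0.24 and ssn6 at -0.88 ± 0.27, with grx4 highest at -0.17 ± 0.18. These counts too were near the shares of all ORFs, 8.19% enriched and 38.8% depleted, and the share depleted rests on the zero point: centred on the ORF median, 765 of all 5461 features were depleted in place of 1425. No feature was matched to tup12. Among genes that use or store iron and are repressed by Php4 when iron is scarce, taken with the vacuolar transporter gene abc3, 4 of 5 upstream features were enriched, against 43.7% of all intergenic features. These ran from isa1 at -0.16 ± 0.46, not called, to abc3 at 2.92 ± 0.14. None of their 5 measured ORFs was enriched, from rli1 at -0.55 ± 0.30 to lys4 at 0.45 ± 0.77.

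Over all these lists 11 of 15 upstream features were enriched with a median of 1.66, against 43.7% of all intergenic features. Of the 18 measured ORFs 1 was enriched, near the 8.19% of all ORFs, and 3 were depleted, against 38.8%, with a median of -0.24 against -0.49 for all ORFs. The highest upstream feature of any list, that of str3, lay between frp1 and fio1.

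**Figure D5:**
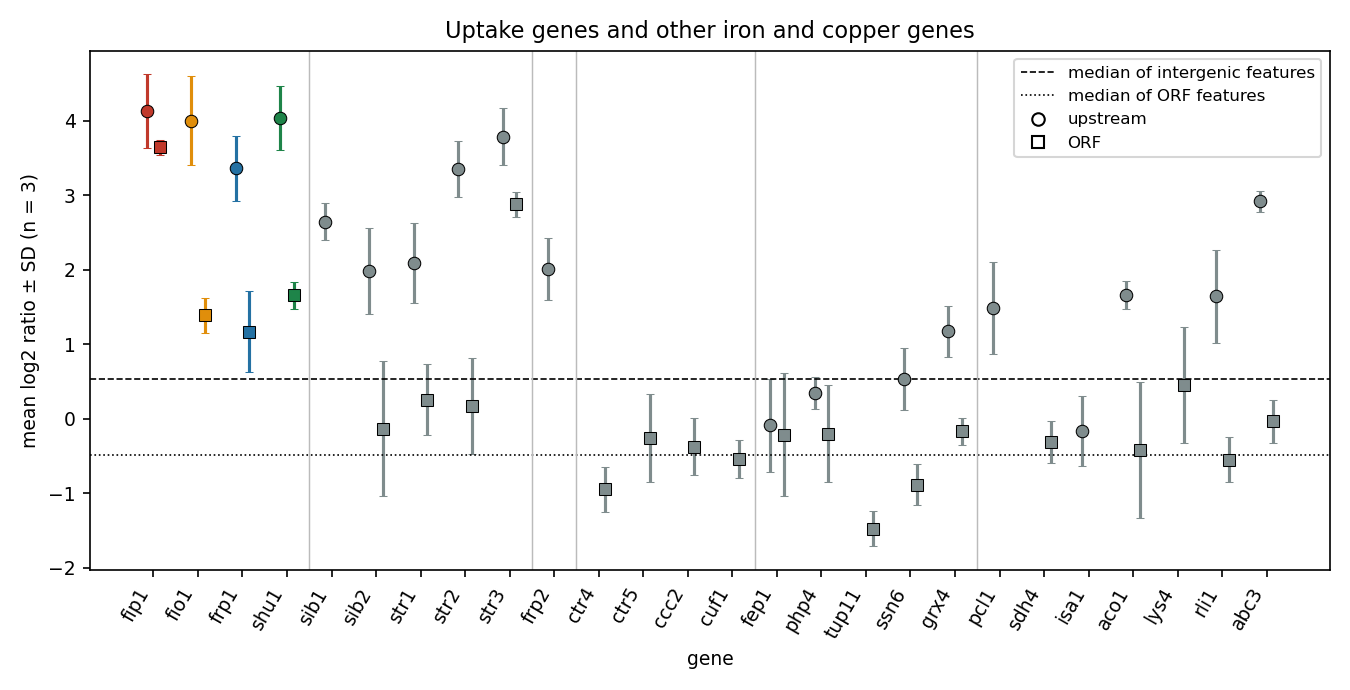
Mean centred log2 ratio with SD (n = 3 arrays, vertical axis) of upstream features (circles) and ORFs (squares) of the 4 uptake genes (coloured) and of siderophore, reductase, copper, regulator and iron-use genes (grey, lists divided by vertical lines). Lines mark the medians of all intergenic (0.54) and ORF (-0.49) features; uptake genes lie at 3.36 or more upstream, and the copper genes have ORF values only.

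The sites shown above were then set against upstream signal over all genes with both a window and a measured upstream feature. The median log2 ratio was 0.50 ± 0.05 over 1087 genes without a core site, 0.54 ± 0.07 over 607 with 1, 0.79 ± 0.03 over 226 with 2 and 0.84 ± 0.13 over 53 with 3 or more, where the SD is that of the medians of the arrays. An extended site went with a median of 1.66 ± 0.28 over 30 genes, and without the 4 uptake genes with 1.37 ± 0.13 over 26 genes, of which 18 were enriched (69.2%). The median was 0.55 ± 0.06 over the 1943 genes without one, of which 43.0% were enriched. The 4 uptake genes, at 3.36 to 4.12, lay above the median of the other genes with an extended site. Divergent genes share windows, so these genes are not independent, and no test was made. Of the pathway lists, str2, php4, grx4 and abc3 also had an extended site in the window, with upstream values of 3.35, 0.34, 1.17 and 2.92. No site of either form lay in the windows of str3, sib1, str1, frp2 and sib2, all enriched upstream at 3.79, 2.64, 2.09, 2.01 and 1.98. The windows of ssn6 (0.54) and isa1 (-0.16) also held none, and their upstream features were not called.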

How the data were processed

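The authors deposited integrated spot intensity per channel for each array, already reduced by local background, with a listed background intensity, flags, and a fraction of unsaturated pixels. The scanner was a ScanExpress and the quantification software TIGR Spotfinder, per the labels' protocols; no source used here gives versions or the array's genome build. The deposited series matrix holds log10 values, normalized to the 50th percentile in GeneSpring per the labels; they follow the immunoprecipitate channel rather than a ratio, with scale and centring not stated, and served as an alternative only.

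Ratios were log2 of immunoprecipitate over input for spots flagged X in neither channel, centred on the array median, repeat spots averaged. limma 3.58.1 (lmFit, eBayes; R 4.3.3) tested each feature's mean against 0, two-sided, with Benjamini-Hochberg adjustment over 5461 features, and upstream minus ORF differences over 1312 genes. Percentile ranks were taken over accepted spots, with a limit of 85. The fits were run on simulated data of independent features, few of them shifted. This checks the code and not the calls made here. Names were matched to ASM294v3 for 9525 of 9967 features (95.6%). Windows of 300 bases were read from RefSeq with Biopython 1.88.

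All features of the 4 genes are named. Of each pathway list the highest and lowest are named, of the neighbours those called or adjacent, and the 2 genes nearest in pattern. The 4 genes and these lists were chosen with earlier results of these data known. Upstream sib1, str1, str2, ssn6, php4 and grx4 values beside the sites were named after their values were seen. Alternatives covered flags, background, normalization, zero point, printed block, input signal, arrays required, the series matrix and each replicate left out. The 3 arrays limit the precision; no untagged strain was analysed here.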

Additional observations from a re-analysis of the deposited data

How the results depend on the processing

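The upstream features of fip1 (3.36 to 5.19) and fio1 (3.23 to 5.2) and the fip1 ORF (2.82 to 5.43) stayed enriched under all 13 alternatives, and the upstream shu1 feature under the 12 that gave it a value (2.93 to 5.71). The series matrix is among these alternatives, follows a single channel, and gave the top of the fip1 and fio1 ranges. Among ratios the highest values of upstream fip1, upstream fio1 and the fip1 ORF were 5.10, 4.95 and 4.55, after further background subtraction. Dim input left out gave no value for upstream frp1 and shu1. Without the filter on flags, 5 of the 9 uptake features were enriched, against 1026 of all 9967 features, and 5 were in the binding list. There the ORFs of fio1 (1.04), frp1 (0.40) and shu1 (0.89) and the long fio1 feature (0.54) lost the call. The long fio1 feature also lost it after further background subtraction (0.79) and with printed blocks centred (0.48). In the series matrix, upstream frp1 was at 0.19 (limma adjusted p = 0.91), and the upstream minus ORF difference turned to -0.24 for fip1 (limma adjusted p = 0.83) and -1.84 for frp1 (limma adjusted p = 0.43) and was 0.64 for shu1 (limma adjusted p = 0.55); these values are of a single channel. Genes with upstream called above ORF numbered 623 of 1312 as given above. They were 1314 of 4521 without the filter on flags, 334 of 954 after further background subtraction and 302 within bins of similar input. With dim input left out they were 316 of 811, and in the series matrix 47 of 1380. Centring on ORF features raised the enriched features from 1209 to 1867. Leaving out an array gave 962 to 1371 enriched features, 403 (without replicate 1) to 699 genes with upstream above ORF, and 8 or 9 uptake features in the binding list, with 9 enriched each time. The list held 6 of 9 with blocks centred, 8 with normexp and 7 of the 8 measured after further background subtraction. The fio1 ORF had no value after that subtraction. The cause of these changes was not tested. No paired analysis between groups was possible because there is a single group; upstream and ORF values were paired within arrays.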
